A study of Homo sapiens with 3 samples.

Results

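The aminoacyl-tRNA synthetases are the enzymes that join each amino acid to its transfer RNA. The set described here holds 36 human genes of 52992 genes summed from the deposited transcripts, listed by gene symbol and not by any measured value. It comprises 20 genes for cytosolic enzymes (AARS to YARS in the older symbols, where AARS1 is written AARS) and 16 genes, whose symbols end in 2, for mitochondrial enzymes. Expression was measured by RNA-seq of total RNA in TE5, an established esophageal squamous cell carcinoma line. One library came from TE5 cells that received a scrambled control and 2 came from TE5 cells that received short hairpin RNA against KLF5 (shKLF5), a zinc finger transcription factor of squamous epithelium. All cells were collected at 48 h and carried no other labelled treatment. The labels number the shKLF5 libraries 1 and 2 without saying whether they were separate cultures or separate hairpins. Each comparison rests on a single scramble library of a single cell line. The p-values thus measure only the spread between the 2 shKLF5 libraries, estimated in part across genes, and this spread may be technical.

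Charging of transfer RNA is the step at which the genetic code is read chemically: a synthetase activates its amino acid with ATP and passes it to the matching transfer RNA, and many synthetases also remove wrongly attached amino acids. Cytosol and mitochondria have separate sets of transfer RNA, and most mitochondrial synthetases are encoded by nuclear genes of their own. Several cytosolic synthetases sit together with scaffold proteins in the multi-synthetase complex, whereas the others are free or bind elongation factors. The enzymes fall into a pair of unrelated structural classes, I and II. Many cytosolic synthetase genes are known targets of ATF4, the transcription factor that cells make more of when amino acids run short or the endoplasmic reticulum is stressed.

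The libraries held 32720563 to 33544752 estimated counts each. KLF5 itself, a check of the labels, had 8402 estimated counts in the scramble library and 1333 and 1531 in shKLF5 libraries 1 and 2 (log2 fold change -2.96, SE 0.34, edgeR adjusted p = 0.182). Transcripts encoded by mitochondrial DNA took 39.3% of gene counts in scramble and 32.2% and 35.9% in shKLF5, and the scaling factors by the trimmed mean of M values (TMM) were 0.82 in scramble against 1.11 and 1.10. Genes with 10 counts or more numbered 16920 in scramble and 19304 and 19422 in shKLF5. Of the members' summed counts, transcripts annotated as retained introns held 5.41%, 6.38% and 7.16%, and protein-coding transcripts held 88.1%, 86.9% and 86.2%. All 6 listed squamous epithelium markers were present and, after TMM scaling, were below scramble in both shKLF5 libraries, against 36.5% of all genes tested. KRT5 had 142684, 34119 and 13095 estimated counts. SOX2 in library 1 was barely below scramble after scaling (log2 difference -0.014). Its estimated counts (5899, 7876 and 2185) were above scramble in that library. Most markers of other cell types were low, but COL1A1 was not. The leukocyte genes PTPRC, CD3E and CD14 had at most 24 estimated counts in any library. The endothelial genes CDH5 and VWF summed to 0.324, 1.05 and 1.35 TPM (transcript abundance per length, scaled to a fixed sum per library). VWF had 87 estimated counts in scramble and 237 and 341 in shKLF5 libraries 1 and 2. The fibroblast list (COL1A1, COL1A2, DCN, PDGFRB) summed to 13.2, 23.0 and 14.97 TPM. Most of that sum came from COL1A1, which had 1291 estimated counts in scramble and 2195 and 1495 in shKLF5. CD3E and CDH5 were at 0 in scramble. The part of these differences in the synthetase values was not tested.

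In the scramble library, cytosolic synthetase mRNA far exceeded mitochondrial synthetase mRNA. The 20 cytosolic genes summed to 1246 TPM in scramble, and the 16 mitochondrial genes summed to 188 TPM. The list holds no separate mitochondrial gene for glycine or lysine, so GARS and KARS are counted only as cytosolic in these sums. Summed over matched transcripts, GARS, the glycyl-tRNA synthetase, was the highest of the 36 genes in all 3 libraries (146 TPM in scramble). TARS (131 TPM), MARS (119 TPM) and QARS (116 TPM), which charge threonine, methionine and glutamine, followed in scramble. An unmatched transcript described below would put TARS at 154.5 TPM in scramble, above GARS, but not above it in the shKLF5 libraries. The lowest cytosolic gene was FARSB, the beta subunit of phenylalanyl-tRNA synthetase, at 2.05 TPM, while FARSA, which encodes the alpha subunit of the same enzyme, stood at 33.7 TPM. CARS2, for mitochondrial cysteinyl-tRNA synthetase, led the mitochondrial genes at 34.6 TPM, with 32.4% of its counts in transcripts annotated as retained introns. WARS2, for the mitochondrial tryptophan enzyme, was last at 1.21 TPM. With a single scramble library, neighbours in this order cannot be separated by replicate spread.

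**Figure D1:**
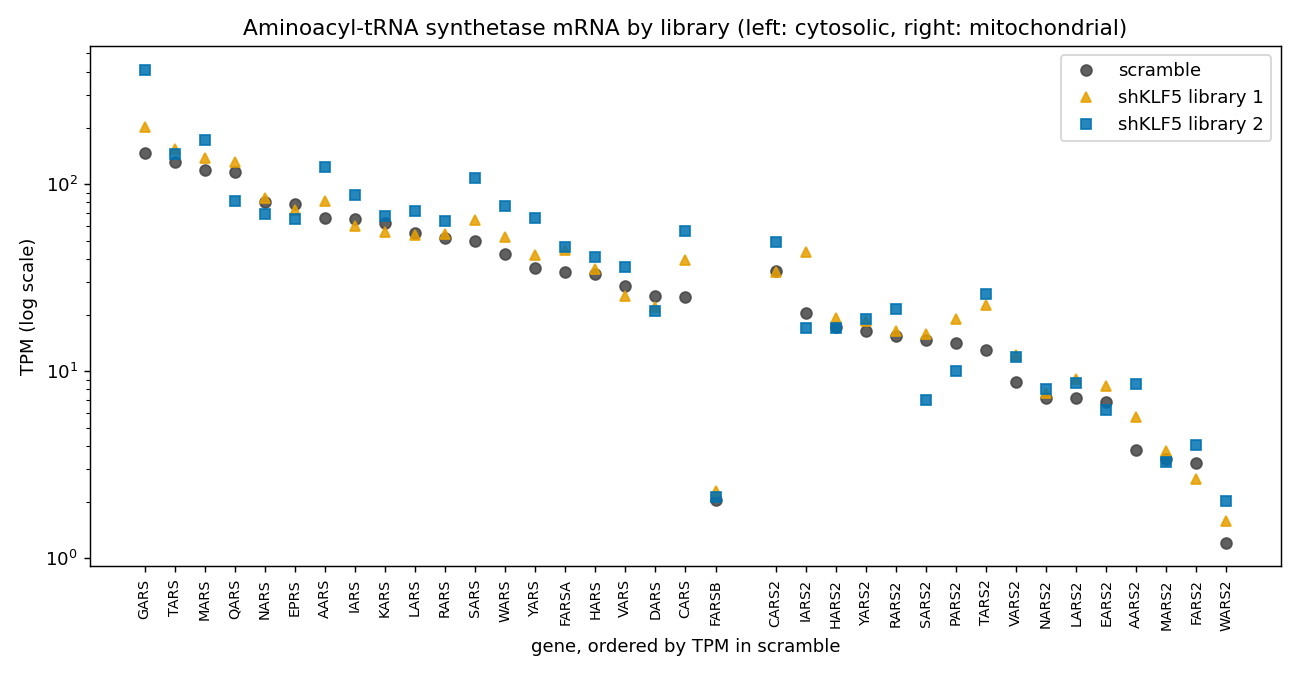
TPM (log axis) of the 20 cytosolic genes on the left and the 16 mitochondrial genes on the right, ordered by scramble level, with 1 point per library (circle, scramble; triangle, shKLF5 library 1; square, shKLF5 library 2). GARS stands at 146 TPM in scramble and at 203 and 410 TPM in the shKLF5 libraries, whereas FARSB lies between 2.05 and 2.28 TPM in all 3.

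Against scramble, no synthetase gene passed the test. The fit by edgeR's quasi-likelihood test with Benjamini-Hochberg adjustment over 20629 genes called 0 genes (0.0%), and adjusted p over the 36 members ran from 0.566 to 0.988. Unadjusted p was under 0.05 for 0 of the 36 members, against 9.18% of all genes tested, and DESeq2 called 0 of the 36 members, against 0.681% of the genes it gave an adjusted p. In TMM-normalised CPM (counts scaled to library size, not to length), 20 of 36 members were below scramble in both shKLF5 libraries, against 36.5% of all genes tested, and 5 of 36 were above it in both, against 37.9%. Among 10376 protein-coding genes with a mean of at least 5 CPM, however, 51.8% were below scramble in both libraries and 22.6% above. The first share lies close to the 55.6% of members below in both. Members above in both were fewer, at 1 of 20 cytosolic and 4 of 16 mitochondrial genes. The members' median log2 fold change was -0.33, against 0.04 over all genes tested and -0.17 over those expressed protein-coding genes. Its sign rests on the scaling: scaled by library size alone, the medians were 0.10 for the cytosolic and 0.13 for the mitochondrial genes, beside 0.47 over all genes, and 25 of 36 members lay below the median of all genes under either scaling. Set against the median of the expressed protein-coding genes, 11 of 20 cytosolic and 9 of 16 mitochondrial members lay below it.

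**Figure D2:**
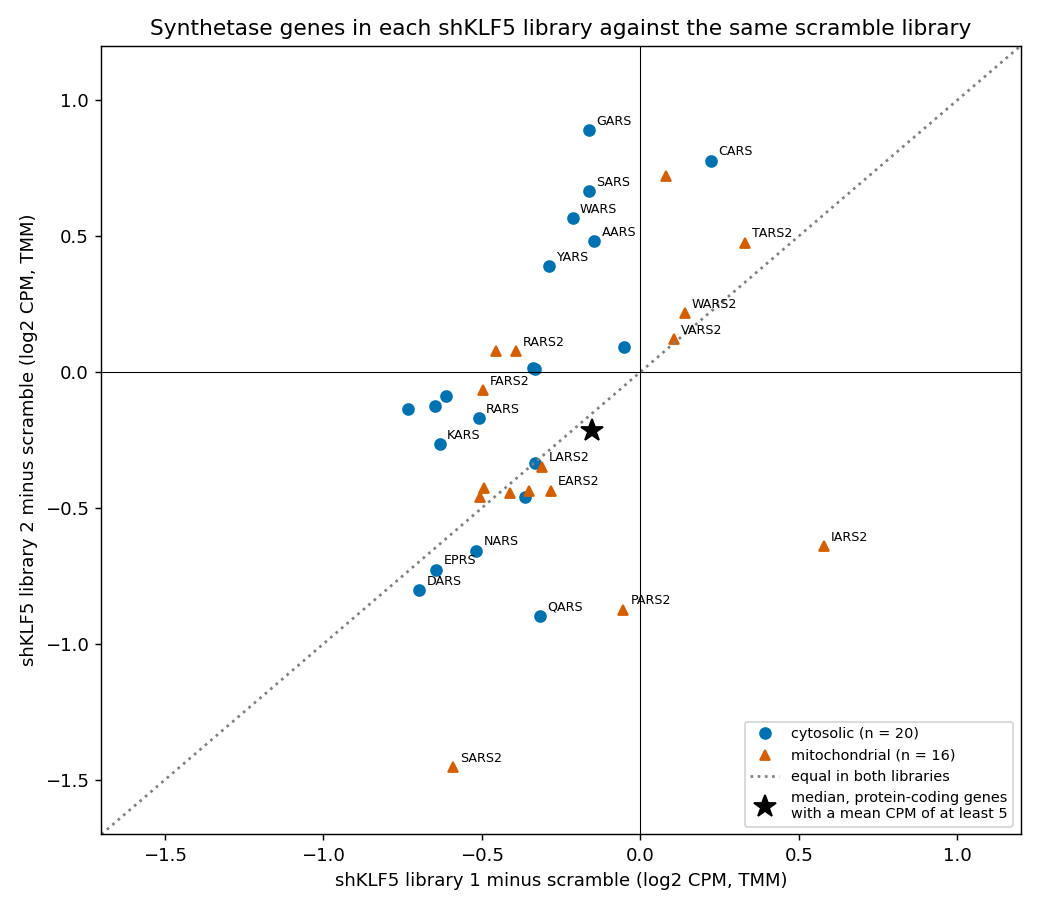
Log2 difference in TMM-normalised CPM from the same scramble library, for shKLF5 library 1 on the x axis and library 2 on the y axis, with cytosolic genes as circles, mitochondrial genes as triangles and the median of expressed protein-coding genes as a star; names are left out where points crowd. GARS, SARS, WARS, AARS and YARS lie left of 0 and above 0, SARS2 lies lowest at -1.45 in library 2, and the position of the 0 lines moves with the scaling.

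Among the 8 enzymes of the multi-synthetase complex, 7 were below scramble in both shKLF5 libraries on the TMM scale (DARS, EPRS, IARS, KARS, LARS, QARS and RARS) and MARS had one value on each side. Their median log2 fold change was -0.42, with -0.64 in library 1 and -0.22 in library 2. The share below scramble in both was 36.5% over all genes tested and 51.8% over the expressed protein-coding genes. The count rests on the scale: in TPM only DARS and EPRS of the 8 were below scramble in both libraries, RARS and MARS were above it in both and the other 4 were split, against 11.3% below in both and 65.2% above in both over all genes tested. As summed TPM the 8 genes stood at 572 in scramble, 588 in library 1 and 630 in library 2.

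DARS, for aspartyl-tRNA synthetase (GRCh38 chromosome 2, 135906677 to 135986100), had 1575 estimated counts in scramble and 1308 and 1180 in shKLF5 libraries 1 and 2, and its TPM values were 25.3, 22.1 and 21.0. Both shKLF5 libraries lay below scramble in counts, TPM and normalised CPM. The log2 fold change was -0.75 (SE 0.35, 95% interval -1.57 to 0.07, edgeR adjusted p = 0.566), the lowest adjusted p of the 36 members. EPRS (chromosome 1, 219968601 to 220046658) encodes the bifunctional enzyme that charges both glutamic acid and proline. It had 9141, 7890 and 7221 estimated counts and 78.4, 72.8 and 65.0 TPM, again lower in both shKLF5 libraries on these scales. Its log2 fold change was -0.68 (SE 0.34, interval -1.46 to 0.10, edgeR adjusted p = 0.578).

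QARS (chromosome 3, 49095932 to 49105135) separated the shKLF5 libraries: its estimated counts were 4419 in scramble and 4781 and 3105 in shKLF5, or 116, 132 and 81.5 TPM. In TPM library 2 alone was below scramble, and the fitted log2 fold change was -0.58 (SE 0.38, edgeR adjusted p = 0.663). KARS (chromosome 16, 75627474 to 75648643) had 3444, 2993 and 3750 estimated counts and 61.8, 55.4 and 67.5 TPM, with a log2 fold change of -0.44 (SE 0.36, edgeR adjusted p = 0.72). Here library 2 was above scramble in TPM and below it in normalised CPM. KARS encodes both the cytosolic and the mitochondrial lysine enzyme through alternative splicing. The transcript KARS-202, whose protein of 625 residues is the mitochondrial form, took 19.8% of the gene's counts in scramble and 20.8% and 27.9% in shKLF5, while KARS-201 (597 residues, cytosolic) took 76.8%, 76.2% and 68.7%. KARS overlaps TERF2IP on the opposite strand (879, 1517 and 2247 estimated counts), and since no source used here gives the use of strand, reads of the shared stretch cannot be told apart.

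The complex's scaffold genes gave mixed values. AIMP1 had 1476, 1283 and 1520 estimated counts (log2 fold change -0.48, SE 0.36) and EEF1E1, also known as AIMP3, had 693, 758 and 807 (log2 fold change -0.23, SE 0.38). AIMP2 had 1478, 1750 and 2388 estimated counts (log2 fold change 0.08, SE 0.39). On the TMM scale 2 of the 3 were below scramble in both shKLF5 libraries, against 36.5% of all genes tested and 51.8% of the expressed protein-coding genes. The test was passed by 0 of 3.

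The 12 free cytosolic synthetases differed more between shKLF5 libraries 1 and 2 than the complex or the mitochondrial genes did, by their medians. Their summed TPM was 674 in scramble, 827 in library 1 and 1180 in library 2, and their share of all gene counts was 0.128%, 0.146% and 0.220%. On the TMM scale 4 of the 12 were below scramble in both libraries (FARSB, NARS, TARS and VARS), CARS alone was above it in both, and the other 7 had one library on each side. The share below in both was 36.5% over all genes tested and 51.8% over the expressed protein-coding genes. The median log2 fold change of the 12 genes was -0.25 in library 1 and 0.24 in library 2.

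GARS (chromosome 7, 30594681 to 30634033) had 9814 estimated counts in scramble and 11816 and 23780 in the shKLF5 libraries, equal to 146, 203 and 410 TPM. In normalised CPM the values were 369 in scramble and 507 ± 250 (SD, n = 2) in shKLF5, with library 2 at 2.07 times library 1. In normalised CPM the shKLF5 libraries thus lay on either side of scramble, and the log2 fold change was 0.46 (SE 0.48, 95% interval -0.66 to 1.58, edgeR adjusted p = 0.782). GARS-201, the main coding transcript, carried 95.6%, 92.9% and 92.2% of the gene's counts. GARS-DT, a transcript that overlaps GARS on the opposite strand, had 1171, 1585 and 1494 estimated counts and did not follow GARS in library 2.

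CARS, for cytosolic cysteinyl-tRNA synthetase (chromosome 11, 3000922 to 3057613), had 1691, 2660 and 3794 estimated counts and 24.9, 39.6 and 56.1 TPM. Both shKLF5 libraries exceeded scramble in counts, TPM and normalised CPM. Normalised CPM was 63.6 in scramble and 91.7 ± 24.7 (SD, n = 2) in shKLF5, and the log2 fold change of 0.53 (SE 0.40, edgeR adjusted p = 0.695) did not pass the test. Within the gene, the longer coding transcript CARS-202 held 11.1% of counts in scramble and 21.8% and 18.3% in the shKLF5 libraries, and CARS-201 held 55.3%, 47.4% and 51.0%.

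NARS and TARS behaved unlike GARS and CARS. NARS, for asparaginyl-tRNA synthetase (chromosome 18, 57600656 to 57622213), had 4607, 4339 and 3819 estimated counts, or 80.8, 83.9 and 69.4 TPM, and a log2 fold change of -0.59 (SE 0.34, edgeR adjusted p = 0.623). TARS (chromosome 5, 33440696 to 33469539) had 6509, 6819 and 6195 estimated counts, or 131, 154 and 146 TPM, and a log2 fold change of -0.41 (SE 0.34, edgeR adjusted p = 0.722). Both shKLF5 libraries lay above scramble for TARS in TPM and below it in normalised CPM, so its direction is set by the scaling. For TARS, an unmatched transcript with the same length and the same counts as TARS-209 in all 3 libraries, noticed after the data were examined, would add 26.1%, 24.1% and 24.8% to the gene's counts. Such a transcript was found for 4 members. It would add 5.58%, 7.24% and 4.66% to the counts of NARS, and at most 1.96% to those of RARS and CARS.

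The mitochondrial synthetases included genes with values in both directions. On the TMM scale 9 of 16 were below scramble in both shKLF5 libraries, 4 (AARS2, TARS2, VARS2 and WARS2) were above it in both, and 3 had one library on each side. Over all genes tested, 36.5% were below in both and 37.9% above in both. Over the expressed protein-coding genes the shares were 51.8% and 22.6%, close to the mitochondrial counts. The median log2 fold change of the mitochondrial genes was -0.30 and their range -0.96 to 0.44, against -0.33 and -0.75 to 0.53 for the cytosolic genes. Among protein-coding genes within the CPM range of each group, the medians were -0.14 for 9051 genes in the mitochondrial range and -0.17 for 9765 genes in the cytosolic range. Of the mitochondrial genes, 5 of 7 class II and 4 of 9 class I enzymes were below scramble in both libraries, and the counts for the cytosolic genes were 5 of 10 and 6 of 10. The shares of 36.5% and 51.8% given above stand beside these counts too. EPRS, described above as charging both glutamic acid and proline, was counted in class I only.

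SARS2, the mitochondrial seryl-tRNA synthetase (chromosome 19, 38915266 to 38930896), gave the lowest fold change of the 36 genes. Its estimated counts were 405 in scramble, then 362 and 192 in shKLF5, or 14.7, 15.9 and 7.05 TPM. Only library 2 was below scramble in TPM, and the log2 fold change was -0.96 (SE 0.49, 95% interval -2.10 to 0.18, edgeR adjusted p = 0.589). MRPS12, a mitochondrial ribosomal protein gene whose start overlaps that of SARS2 on the opposite strand, had 454, 537 and 505 estimated counts and did not share the low value of library 2.

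PARS2, for mitochondrial prolyl-tRNA synthetase (chromosome 1, 54756898 to 54764514), had 958, 1244 and 683 estimated counts and 14.2, 19.1 and 10.1 TPM, so that scramble stood between the shKLF5 libraries. Its log2 fold change was -0.41 (SE 0.44, edgeR adjusted p = 0.789). AARS2, for the mitochondrial alanine enzyme (chromosome 6, 44299654 to 44313326), had 422, 602 and 911 estimated counts and 3.80, 5.72 and 8.59 TPM. It was above scramble in both libraries in counts, TPM and normalised CPM, with a log2 fold change of 0.44 (SE 0.45, edgeR adjusted p = 0.773).

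HARS2, NARS2 and YARS2, which charge histidine, asparagine and tyrosine in mitochondria, hardly differed in counts among the libraries. HARS2 (chromosome 5, 140691426 to 140699318) had 968, 918 and 920 estimated counts and 17.3, 19.4 and 17.1 TPM, with a log2 fold change of -0.48 (SE 0.37, edgeR adjusted p = 0.7). NARS2 (chromosome 11, 78435961 to 78574874) had 406, 388 and 395 estimated counts and 7.22, 7.64 and 8.08 TPM, with a log2 fold change of -0.46 (SE 0.41, edgeR adjusted p = 0.739). YARS2 (chromosome 12, 32727490 to 32755902) had 699, 708 and 671 estimated counts and 16.4, 18.6 and 19.0 TPM, with a log2 fold change of -0.43 (SE 0.38, edgeR adjusted p = 0.737). Scaled by library size alone, HARS2 stood at -0.055 and NARS2 at -0.032, and on log2(TPM + 1) by limma the 3 values were 0.07, 0.11 and 0.19. HARS2 and HARS, for the mitochondrial and the cytosolic histidine enzymes, are transcribed away from each other and their genes overlap by 436 bases at their starts, so reads there cannot be told apart.

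IARS2, the mitochondrial isoleucine enzyme, had the widest gap of the 36 genes between the shKLF5 libraries, and is named for it after its values were seen. Estimated counts were 2068 in scramble and 4166 and 1734 in shKLF5, equal to 20.5, 43.4 and 17.0 TPM. Library 2 was at 0.429 times library 1 in normalised CPM, and a single transcript, IARS2-201, held at least 99.4% of the gene's counts in each library.

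Most amino acids have a cytosolic and a mitochondrial gene each, and 13 such pairs could be compared within a library, where the scaling of the library cancels. In scramble the cytosolic gene had the higher TPM in 12 of the 13 pairs, with ratios from 0.719 (CARS over CARS2) to 35.0 (WARS over WARS2) and a median of 3.39. In counts, the ratio was below scramble in both shKLF5 libraries for 5 pairs (alanine, asparagine, arginine, threonine and valine), above it in both for 5 (cysteine, histidine, methionine, serine and tyrosine), and split for isoleucine, leucine and tryptophan. Histidine differed in TPM, where the ratio was 1.91, 1.82 and 2.38.

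Cysteine was the pair in which the order of the genes turned over, in TPM summed over all transcripts. CARS stood at 0.719 times CARS2 in scramble and at 1.17 and 1.15 times CARS2 in the shKLF5 libraries, whose values lay close together. Transcripts annotated as retained introns held 32.4%, 34.5% and 46.7% of the counts of CARS2. For CARS they held 20.7%, 22.3% and 23.2%. Whether the order turns over in coding transcripts alone was not tested. For threonine the ratio of TARS to TARS2 was 10.1 in scramble and 6.81 and 5.61 in shKLF5, where TARS2 had 777, 1318 and 1414 estimated counts. For serine the ratio of SARS to SARS2 was 3.39, 4.03 and 15.3, so that library 2 alone stood far from scramble, and for isoleucine the ratio of IARS to IARS2 was 3.18, 1.38 and 5.18, with the shKLF5 libraries on either side of it. With 1 scramble library these ratios have no error of their own.

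**Figure D3:**
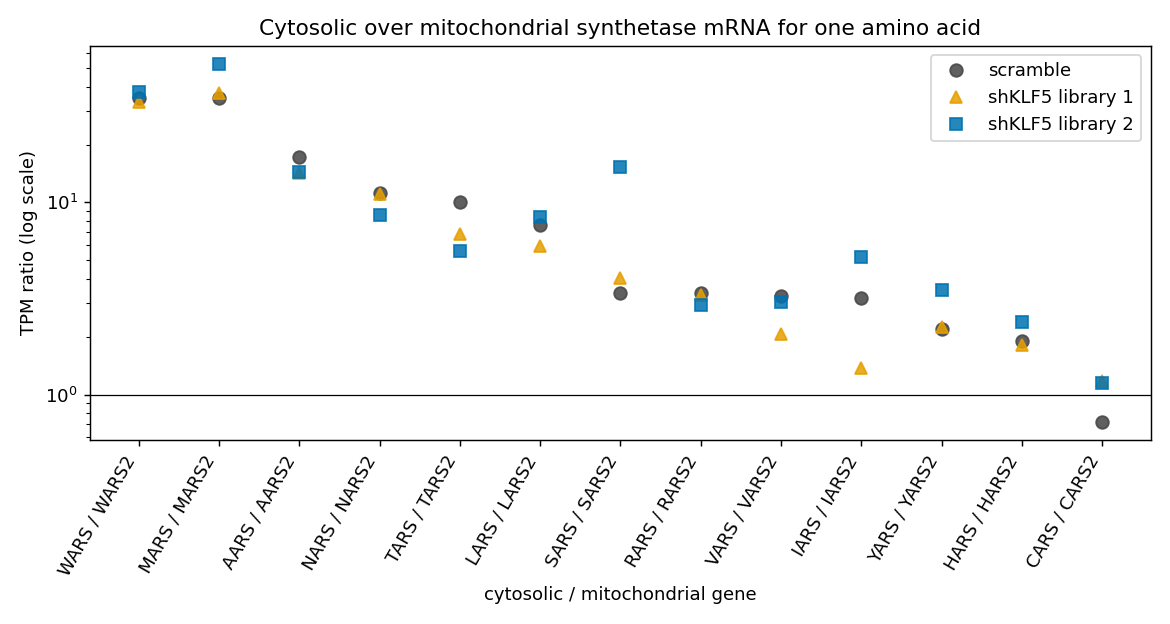
TPM of the cytosolic gene divided by TPM of the mitochondrial gene for the same amino acid (log axis), in 13 pairs with 1 point per library; the line marks equal TPM. The CARS over CARS2 pair is the only one below the line in scramble (0.719), and SARS over SARS2 reaches 15.3 in shKLF5 library 2.

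The remaining pairs gave the following TPM ratios, in the order scramble, library 1 and library 2. The ratio of AARS to AARS2 was 17.3, 14.2 and 14.4, that of LARS to LARS2 was 7.60, 5.93 and 8.37, that of MARS to MARS2 was 34.9, 37.1 and 52.6, and that of NARS to NARS2 was 11.2, 11 and 8.59. That of RARS to RARS2 was 3.36, 3.29 and 2.94, that of VARS to VARS2 was 3.25, 2.06 and 3.04, that of WARS to WARS2 was 35.0, 33.1 and 37.5, and that of YARS to YARS2 was 2.18, 2.24 and 3.48. EARS2 and PARS2 have no single cytosolic partner, since EPRS charges both of their amino acids, and EPRS stood at 11.5, 8.77 and 10.5 times EARS2. FARS2, a single-chain enzyme, has the subunit gene FARSA opposite it, at 10.5, 16.7 and 11.4 times its TPM. EARS2 differed in transcript use: EARS2-207 took 2.09%, 13.7% and 33.8% of its counts and EARS2-201 took 78.0%, 72.4% and 46.3%, both coding for 523 residues.

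Cytosolic genes tended to be higher in shKLF5 library 2 than in library 1, and since the TMM factors of these libraries were 1.11 and 1.10 this difference hardly depends on TMM. In normalised CPM 14 of 20 cytosolic genes and 9 of 16 mitochondrial genes were higher in library 2 than in library 1, against 50.2% of all genes tested and 46.3% of the expressed protein-coding genes. The median difference (library 2 minus library 1, log2 CPM) was 0.36 for the cytosolic and 0.03 for the mitochondrial genes, and 0.54 for the 12 free cytosolic genes. The distance between these libraries exceeded the size of the fitted change from scramble in 20 of the 36 members, 14 of them cytosolic, against 45.5% of all genes tested and 50.2% of the expressed protein-coding genes. No test was possible between single libraries, and whether the distance is technical or biological was not tested.

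After GARS, the genes with the largest ratio of library 2 to library 1, chosen for description after their values were seen, were SARS, WARS, YARS, AARS2 and AARS, all but the mitochondrial AARS2 being free cytosolic enzymes. SARS, which charges serine, had 2325 estimated counts in scramble and 2803 and 4826 in shKLF5 (library 2 over library 1, 1.77 in normalised CPM). WARS, the tryptophan enzyme, had 2177, 2532 and 4214 (1.71), YARS, the tyrosine enzyme, had 2390, 2637 and 4093 (1.60), and AARS, the alanine enzyme, had 6233, 7599 and 11380 (1.54). AARS2, with the values given above, stood at 1.56. In TPM each of these genes was above scramble in both shKLF5 libraries, while in normalised CPM the cytosolic ones were below scramble in library 1 and above it in library 2. At the other end stood QARS at 0.669, PARS2 at 0.567, SARS2 at 0.549 and IARS2 at 0.429 times library 1.

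Several genes that supply amino acids or respond to ATF4 were set beside the synthetases. In this list of 15 genes, 11 were higher in library 2 than in library 1, against 50.2% of all genes tested and 46.3% of the expressed protein-coding genes. The list's median log2 difference from scramble was -0.41 in library 1 and 0.06 in library 2. ATF4 had 6800 estimated counts in scramble and 7314 and 19280 in shKLF5. ASNS, the asparagine synthetase and a well-known ATF4 target, had 1920, 2265 and 5270, and TRIB3, a pseudokinase induced by ATF4, had 1910, 2264 and 9775. All 3 genes, named after their values were seen, were below scramble in library 1 and above it in library 2 in normalised CPM, as were GARS and SARS.

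Of the same list, 0 of 15 passed the adjusted test, while 2 had an unadjusted p under 0.05 with a lower and 2 with a higher value. Over all genes tested, 9.18% had an edgeR unadjusted p under 0.05 in either direction. SLC1A5, a glutamine transporter, had 13273, 10202 and 6970 estimated counts (log2 fold change -1.04, SE 0.37, edgeR adjusted p = 0.476). CHAC1, a glutathione-degrading enzyme of the ATF4 response, had 238, 521 and 1310 (log2 fold change 1.54, SE 0.62, edgeR adjusted p = 0.518). DDIT3, which encodes the stress factor CHOP, had 559, 1073 and 4302 (log2 fold change 1.87, SE 0.77, edgeR adjusted p = 0.529). Of the 3 genes, SLC1A5 was lowest in library 2, where CHAC1 and DDIT3 were highest. SLC7A5, the large neutral amino acid transporter and the fourth gene under that p, had 59533, 50022 and 23096. The list's transporter genes did not all follow it: SLC3A2 and SLC38A2 were also lower in library 2 than in library 1, at 0.607 and 0.878 times, while SLC7A11 stood at 1.02 and SLC1A4 at 1.19 times library 1. DDIT3 overlaps MARS on the opposite strand, and MARS had 6457, 6890 and 8538 estimated counts.

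**Figure D4:**
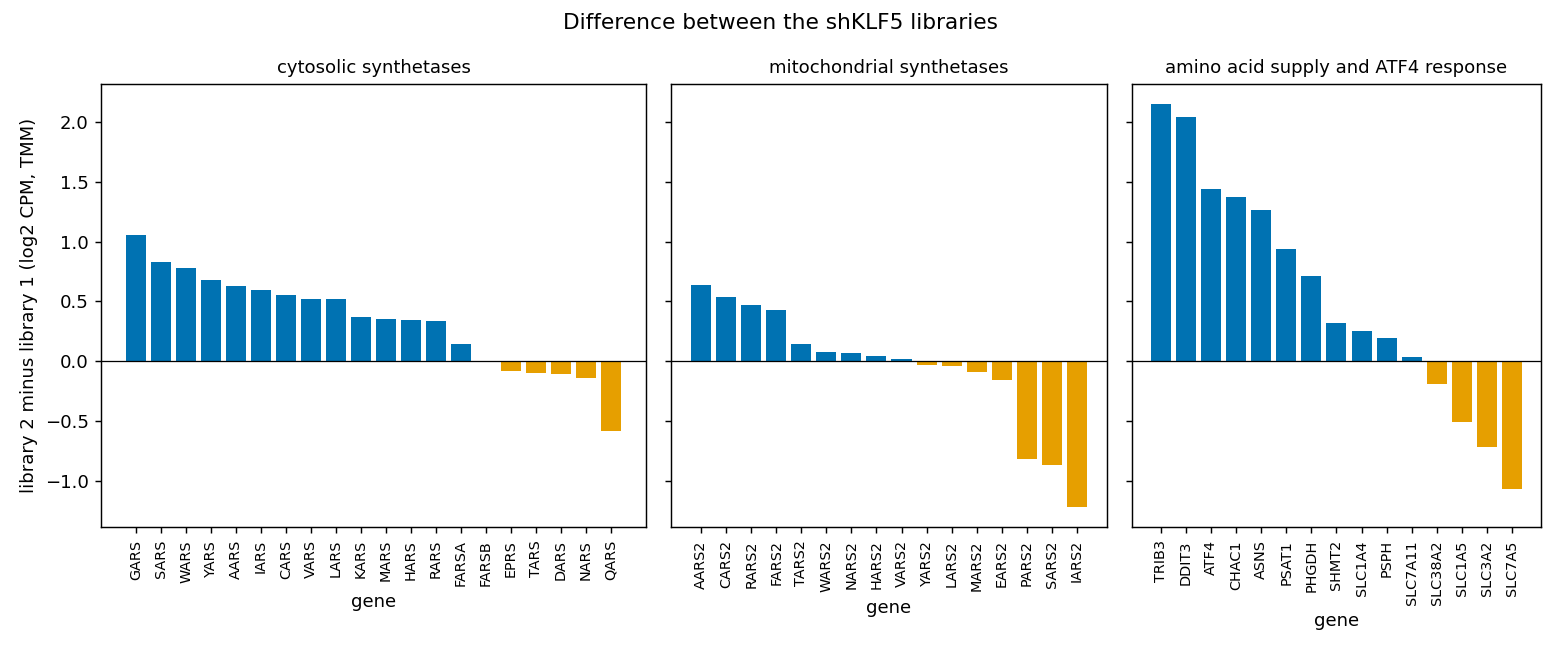
Difference between the shKLF5 libraries (library 2 minus library 1, log2 of TMM-normalised CPM) for the cytosolic synthetases, the mitochondrial synthetases and the amino acid supply and ATF4 response list, 1 bar per gene drawn from 0 and ordered within each panel. GARS leads the cytosolic panel at 1.05, IARS2 ends the mitochondrial panel at -1.22, and TRIB3 and DDIT3 exceed 2 in the third.

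Promoter sequences were searched because the cytosolic genes above include many known ATF4 targets. RefSeq promoters (GRCh38.p14, 250 bases before to 50 after each annotated start) were found for 30 of the 36 members, giving 21 promoters of cytosolic and 18 of mitochondrial genes, and none was matched for DARS, LARS, VARS, YARS, AARS2 and VARS2. The letters TGATGNAA, the core of the C/EBP-ATF response element, occurred on either strand in 7 of 21 cytosolic promoters (33.3%), in 1 of 18 mitochondrial promoters (5.6%) and in 3.62% of all 35116 RefSeq promoters. The 8 stretches that hold it are printed in the direction of the gene, because they show how alike the match is from gene to gene, with the matching letters in capitals, which begin with TT where the motif lies on the other strand. They lie at chr16:70289656-70289723 (minus strand, AARS), chr11:3057399-3057455 (minus, CARS), chr7:30594815-30594882 (plus, GARS), chr9:92293673-92293740 (minus, IARS), chr12:57488034-57488092 (plus, MARS), chr18:57621812-57621852 (minus, NARS), chr5:33440937-33440989 (plus, TARS) and chr12:32756057-32756124 (minus, YARS2).
AARS: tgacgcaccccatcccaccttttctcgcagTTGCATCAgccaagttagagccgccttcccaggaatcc
CARS: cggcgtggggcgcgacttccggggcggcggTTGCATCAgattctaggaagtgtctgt
GARS: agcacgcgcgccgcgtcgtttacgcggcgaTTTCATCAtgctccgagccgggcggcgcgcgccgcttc
IARS: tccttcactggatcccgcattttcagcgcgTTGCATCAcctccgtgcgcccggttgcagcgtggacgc
MARS: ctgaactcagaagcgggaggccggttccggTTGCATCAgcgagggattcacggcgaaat
NARS: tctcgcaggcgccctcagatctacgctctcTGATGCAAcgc
TARS: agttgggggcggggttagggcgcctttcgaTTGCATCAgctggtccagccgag
YARS2: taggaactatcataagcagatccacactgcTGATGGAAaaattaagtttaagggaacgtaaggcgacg

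The match begins between 33 bases before and 14 after the annotated start in GARS, IARS, MARS, CARS, TARS and NARS, and 187 and 197 bases before it in AARS and YARS2. Of the 7 cytosolic genes with a match, 5 were higher in shKLF5 library 2 than in library 1 (AARS, CARS, GARS, IARS and MARS), with NARS and TARS at 0.907 and 0.936 times library 1. Of the 9 matched cytosolic genes without one, 6 were higher in library 2, among them SARS and WARS. Over all genes tested the share higher in library 2 was 50.2%. The median difference between the libraries was 0.56 for the cytosolic genes with and 0.34 for those without a match (log2 CPM), and genes of either kind included both directions. A match of letters is a description and not a binding site, and its absence says only that these letters are not in this window.

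Among the other motifs searched on both strands, overlapping matches being counted under each motif, CACGTG (an E-box) was in 1 of 21 cytosolic (4.8%) and 4 of 18 mitochondrial promoters (22.2%), against 7.26% of all promoters. The 4 belong to 3 genes, CARS2, MARS2 and EARS2, since EARS2 has a pair of overlapping windows that hold the same site. CCNCNCCC, a motif of the KLF family, was in 13 of 21 cytosolic (61.9%) and 14 of 18 mitochondrial promoters (77.8%), against 56.18% of all. GCGCATGCG, the motif of NRF1, was in 0 of 21 cytosolic promoters and in the promoter of MARS2 alone among 18 mitochondrial ones, against 1.92% of all.

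Other genes of the translation pathway gave values within the same range as the synthetases. For the counts that follow, the share below scramble in both libraries was 36.5% over all genes tested and 51.8% over the expressed protein-coding genes. Of 5 cytosolic elongation factor genes, 3 were below scramble in both shKLF5 libraries on the TMM scale and 0 passed the test; EEF1A1, which carries charged transfer RNA to the ribosome, had 83985, 74211 and 73997 estimated counts (log2 fold change -0.59, SE 0.39). Of 7 mitochondrial translation factor genes, 5 were below in both and 0 passed; GFM1, a mitochondrial elongation factor, had 1501, 1385 and 1041 (log2 fold change -0.72, SE 0.37). Only 1 of these 7 genes was higher in library 2 than in library 1 (MTRF1L, a mitochondrial release factor), against 50.2% of all genes tested. Of 7 genes for aminoacyl-tRNA quality control and mitochondrial charging, 4 were below in both and 0 passed, with the lowest values for DTD2, a D-aminoacyl-tRNA deacylase (250, 242 and 153 estimated counts, log2 fold change -0.75, SE 0.49) and MTFMT, the mitochondrial methionyl-tRNA formyltransferase (978, 911 and 761, log2 fold change -0.64, SE 0.37).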

How the data were processed

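RNA-seq of 3 TE5 libraries was used. Per the submitters' processing notes, kallisto and DESeq2 were run, and hg19 was the build. The software versions, kallisto index and strand setting were not given in the sources used here. The authors deposited estimated counts for each transcript, without normalisation, as the kallisto column names show. TPM, also deposited, divides these by effective length and scales them to a fixed sum per library. Deposited lengths and effective lengths served to match transcripts and to build length-scaled counts.

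Of 196354 transcripts, 181857 (92.6%) matched GENCODE 29 identifiers and were summed to 52992 genes; unmatched transcripts held 3.05% to 3.42% of counts. Counts were rounded to whole numbers and fitted with edgeR 4.0.16 (quasi-likelihood, TMM, filterByExpr, 20629 genes; R 4.3.3). The fit had 1 residual degree of freedom, which comes from the shKLF5 libraries alone, and 6.863 prior degrees of freedom borrowed from other genes. Standard errors, intervals and p-values by edgeR therefore rest mostly on that borrowed spread. The scramble library was taken to vary as the shKLF5 libraries do. All 36 members passed the filter. Single-library log2 differences used a prior count of 2. DESeq2 1.42.0 and limma 3.58.1 (log2 of TPM plus a pseudocount of 1) were alternatives. The fit was also run on simulated counts with known fold changes, drawn with the spread that the fit itself had estimated. That run cannot check whether scramble varies as the shKLF5 libraries do, and no conclusion is drawn from it. Coordinates printed are GRCh38 from GENCODE 29, since the files hold none.

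Members, gene lists and tests were chosen with earlier results of these data known. Full values were given to the 8 cytosolic and 6 mitochondrial members with the largest absolute log2 fold change among those with a mean of at least 5 CPM, to each cytosolic and mitochondrial pair, and to up to 3 genes per related list by smallest p. One listed leukocyte marker is not reported here.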

Additional observations from a re-analysis of the deposited data

How the results depend on the processing

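The fit rests on a single scramble library, and the direction of 18 of 36 members changed under at least 1 of 3 other scalings (library size alone, limma on TPM, centring). Genes called numbered 0 by edgeR's quasi-likelihood fit (1893 at an unadjusted p under 0.05), 116 by DESeq2 and 21 by edgeR's legacy fit. No member was called under any alternative with a test, and their smallest adjusted p ranged from 0.349 by library size alone upward. Leaving out 1 shKLF5 library leaves no residual degrees of freedom, so those are values with no test. No paired analysis was possible because both shKLF5 libraries are set against the same scramble library. 

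The cytosolic median (-0.328) was -0.156 when centred on expressed protein-coding genes, 0.1 by library size alone, 0.184 by limma on log2(TPM + 1), -0.146 with a mean CPM of at least 5, and from -0.291 without library 2 to -0.086 without library 1. The mitochondrial median (-0.299) was -0.128, 0.129, 0.209 and -0.166 under the same settings, -0.226 with length-scaled TPM, -0.339 with no filter, -0.221 with protein-coding genes only, -0.199 with protein-coding transcripts only (chosen after seeing the data), and -0.365 to -0.287 leaving out 1 library. The cytosolic genes below scramble in both libraries (11) numbered 7 when centred, 3 by library size, 2 by limma, 7 with a mean CPM of at least 5, and 11 to 19 leaving out 1 library, where only the remaining library is counted. The mitochondrial ones (9) numbered 3 by library size and 0 by limma. Beside the main counts, 36.5% of all genes tested and 51.8% of the expressed protein-coding genes were below scramble in both. In TPM, the scale of the limma counts, these shares were 11.3% and 13.1%. For the other settings the shares are not given here, so their counts are not a result about the members. Over all genes tested the median was 0.467 by library size and 0.264 by limma.

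Single members changed sign as follows, and the cause was not tested. By library size alone: FARSB 0.092, HARS 0.278, IARS 0.024, LARS 0.065, MARS 0.279, RARS 0.099, TARS 0.019, VARS 0.102, CARS2 0.265, EARS2 0.071, FARS2 0.158, LARS2 0.1, MARS2 0.033, PARS2 0.023 and RARS2 0.288. By limma on log2(TPM + 1): FARSB 0.068, HARS 0.189, IARS 0.154, LARS 0.179, MARS 0.374, RARS 0.173, TARS 0.195, VARS 0.083, CARS2 0.229, EARS2 0.067, FARS2 0.023, HARS2 0.067, LARS2 0.259, MARS2 0.029, NARS2 0.108, RARS2 0.273 and YARS2 0.189. HARS, MARS, CARS2 and RARS2 were 0.021, 0.022, 0.008 and 0.032 when centred and 0.03, 0.031, 0.019 and 0.042 with a mean CPM of at least 5. FARSA was -0.019 with no filter and -0.037 with length-scaled TPM. Without library 2, AARS was -0.101, FARSA -0.008, GARS -0.119, SARS -0.118, WARS -0.169 and YARS -0.245. Without library 1, IARS2 was -0.62, HARS 0.031, MARS 0.037, CARS2 0.1 and RARS2 0.097.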
